A study of Mus musculus with 4 samples.

Results

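The genes of 10 transcription factors of epithelial cells, Grhl1, Grhl2, Grhl3, Ovol1, Ovol2, Klf4, Klf5, Trp63, Gata3 and Foxa1, were examined for accessible chromatin in EpRas cells. Every FAIRE-positive region that touched the gene body or the 50 kb upstream of its TSS was taken, in mm10 coordinates and with gene models of GENCODE. After merging the 4 libraries, 31 such regions were found, of 35796 regions in all. FAIRE-seq sequences the DNA that is not held by crosslinked protein after formaldehyde fixation, and its peaks mark accessible chromatin. EpRas is a line made from mouse mammary gland epithelial EpH4 cells by transformation with active H-Ras, so all groups carried this oncogene, and all were collected on day 4. The groups were control siRNA without stimulation (siControl untreated), control siRNA with 1 ng/ml of TGF-β, and the same dose of TGF-β after set 1 or set 2 of siRNAs against Etv4 and Etv5, which are ETS-family factors downstream of Ras. Each group had 1 region list, so replicates could not be compared, the spread between samples was not measured, no difference was tested, and every value below describes these libraries. RNA was not measured in these libraries, so the knockdown was not checked here.

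Grainyhead-like factors (Grhl1, Grhl2 and Grhl3) bind and open regulatory regions of junction and keratin genes, and Grhl2 is known to oppose Zeb1. Ovol1 and Ovol2 are zinc finger repressors that hold down mesenchymal genes, among them the Zeb genes. Klf4 and Klf5 are Krüppel-like factors of epithelial differentiation and growth, Trp63 encodes p63 of basal cells, and Gata3 and Foxa1 are factors of luminal mammary cells. TGF-β drives epithelial-mesenchymal transition (EMT), in which such factors are often reduced.

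The DNA of 5 regions is shown because the values below turn on them. They are an intron of Grhl2 (chr15:37244400-37244699, plus strand), the regions upstream of Klf4 (chr4:55541716-55542015, minus strand) and Ovol1 (chr19:5572409-5572708, minus strand), the Foxa1 region (chr12:57544990-57545289, minus strand) and the Trp63 intron (chr16:25777538-25777837, plus strand). Sequences are from the RefSeq copy of GRCm38, run 5′ to 3′ along the strand of the gene and cover up to 300 bases around the middle of the region, with exon bases left out. Capitals mark matches on either strand to the motifs searched, which were AP-1 (TGANTCA), ETS (CCGGAA), RUNX (TGTGGT), the E-box read by Zeb and Snail factors (CACCTG), GRHL (AACCNGTT), KLF (GGGNGGGGC) and the SMAD palindrome (GTCTAGAC).
Grhl2 intron: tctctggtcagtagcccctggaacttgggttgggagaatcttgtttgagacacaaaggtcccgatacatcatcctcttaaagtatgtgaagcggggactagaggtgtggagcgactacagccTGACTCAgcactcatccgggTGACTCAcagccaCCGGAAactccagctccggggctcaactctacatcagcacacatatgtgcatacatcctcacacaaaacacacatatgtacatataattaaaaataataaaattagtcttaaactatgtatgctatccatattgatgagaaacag
Klf4 upstream: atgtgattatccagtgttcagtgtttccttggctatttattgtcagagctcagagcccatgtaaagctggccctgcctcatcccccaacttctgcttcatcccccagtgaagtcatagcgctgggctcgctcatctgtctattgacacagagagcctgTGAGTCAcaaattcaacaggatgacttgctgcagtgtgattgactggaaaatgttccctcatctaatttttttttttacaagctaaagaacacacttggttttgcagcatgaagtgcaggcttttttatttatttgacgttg
Ovol1 upstream: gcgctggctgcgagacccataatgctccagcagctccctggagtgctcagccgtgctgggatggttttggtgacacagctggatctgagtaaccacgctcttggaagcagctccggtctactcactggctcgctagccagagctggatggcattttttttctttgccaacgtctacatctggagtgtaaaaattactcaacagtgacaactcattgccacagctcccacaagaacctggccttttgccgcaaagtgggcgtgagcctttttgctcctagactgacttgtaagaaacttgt
Foxa1 intron: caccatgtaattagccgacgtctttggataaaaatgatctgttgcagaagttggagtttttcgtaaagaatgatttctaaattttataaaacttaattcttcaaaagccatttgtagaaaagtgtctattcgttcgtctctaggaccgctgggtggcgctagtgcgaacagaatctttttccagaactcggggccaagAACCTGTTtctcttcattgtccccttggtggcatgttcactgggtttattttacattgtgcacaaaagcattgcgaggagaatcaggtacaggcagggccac
Trp63 intron: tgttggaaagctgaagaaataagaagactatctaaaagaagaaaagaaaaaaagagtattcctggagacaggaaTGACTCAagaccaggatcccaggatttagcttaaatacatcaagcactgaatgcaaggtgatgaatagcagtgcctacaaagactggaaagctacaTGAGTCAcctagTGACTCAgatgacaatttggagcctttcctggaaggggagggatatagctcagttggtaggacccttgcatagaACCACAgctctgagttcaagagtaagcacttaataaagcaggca

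Of these windows, the Grhl2 intron held 2 AP-1 matches and 1 ETS match, the Klf4 region 1 AP-1 match and the Trp63 intron 3 AP-1 matches with 1 RUNX match. The Foxa1 region held a GRHL match, and the upstream window of Ovol1 held none of the 7 motifs. Over all 31 regions of the 10 genes, AP-1 letters were found in 12 (38.7%), beside 40.9% of all regions of the series. ETS letters were found in 4 regions (12.9%, beside 12.3% of all) and the Zeb and Snail E-box in 6 (19.4%, beside 19.5%). RUNX letters were found in 4 regions (12.9%), beside 26.1% of all, and in 9 when the window was widened to 500 bp, beside 35.4%. The GRHL letters stood in 3 regions (9.68%), beside 2.42% of all regions. Among them were the one at Foxa1 and one inside the Gata3 gene model, 11.02 kb before the Gata3 TSS of the basic annotation. KLF letters stood in 3 regions (9.68%, beside 11.4%), and the SMAD palindrome in none, beside 0.333% of all regions. A match is a description of the sequence and does not show that a factor was bound. The median GC content was 49.7% both for the regions of the 10 genes and for all regions.

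The lists held 22247 regions in untreated cells, 28754 after TGF-β, 22516 for set 1 and 14925 for set 2. The depths estimated from the lists were 15.3, 16.3, 17.3 and 20.7 M reads in the same order, so the shortest list came from the deepest library. Fold enrichment, which divides the fragments at the summit by the local background, had medians of 8.19, 8.44, 7.91 and 7.15. The fewest fragments in a called region were 10 to 12 per library, and weaker accessibility would not have been listed. Among markers of cell type, the promoters of the luminal keratin Krt8 and the basal keratin Krt14 were called in all 4 libraries. That of the luminal keratin Krt18 was called in all but set 2, and that of the other basal keratin, Krt5, in none. The Cdh1 promoter was called in untreated cells and set 2, and that of Epcam in untreated cells alone. Of the mesenchymal genes, the promoter of Vim was called in the 3 libraries with TGF-β, that of Col1a1 with set 2 alone and that of Cdh2 in none. The promoters of the leukocyte genes Ptprc and Cd3e and of the endothelial gene Cdh5 were called in none, and that of the endothelial gene Pecam1 in siControl with TGF-β alone.

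Of the 31 regions, 8 lay at a promoter, meaning within 2 kb of a TSS of the gene, 11 in introns and 11 upstream. The last one lay in the 5′ part of the Gata3 gene model, which belongs to a transcript outside the basic annotation, and none lay in an exon. Untreated cells had 20 of the regions, siControl with TGF-β 24, set 1 16 and set 2 11. By class, promoter regions numbered 7, 5, 3 and 2 in that order, intron regions 5, 10, 5 and 4, and upstream regions 8, 9, 7 and 5. The most intron regions were in siControl with TGF-β, and the most promoter regions in untreated cells. Over the whole series, 13354, 18862, 14139 and 8625 regions lay more than 2 kb from any TSS, in the same order of libraries. Those within 2 kb of one numbered 8893, 9892, 8377 and 6300. Per 100 kb, the 10 genes had 1.97, 2.36, 1.58 and 1.08 regions, beside 1.66, 2.00, 1.62 and 1.13 for all protein-coding genes. All 10 genes had at least 1 region in some library, with 10 at Grhl2, 5 at Ovol1, 4 at Grhl1, 3 each at Trp63 and Gata3, 2 at Ovol2 and 1 each at Grhl3, Klf4, Klf5 and Foxa1. When every list was shortened to its 14925 regions of highest −log10 q-value, an alternative for list length, the counts were 13, 10, 9 and 11, and set 2 was no longer the lowest.

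**Figure D1:**
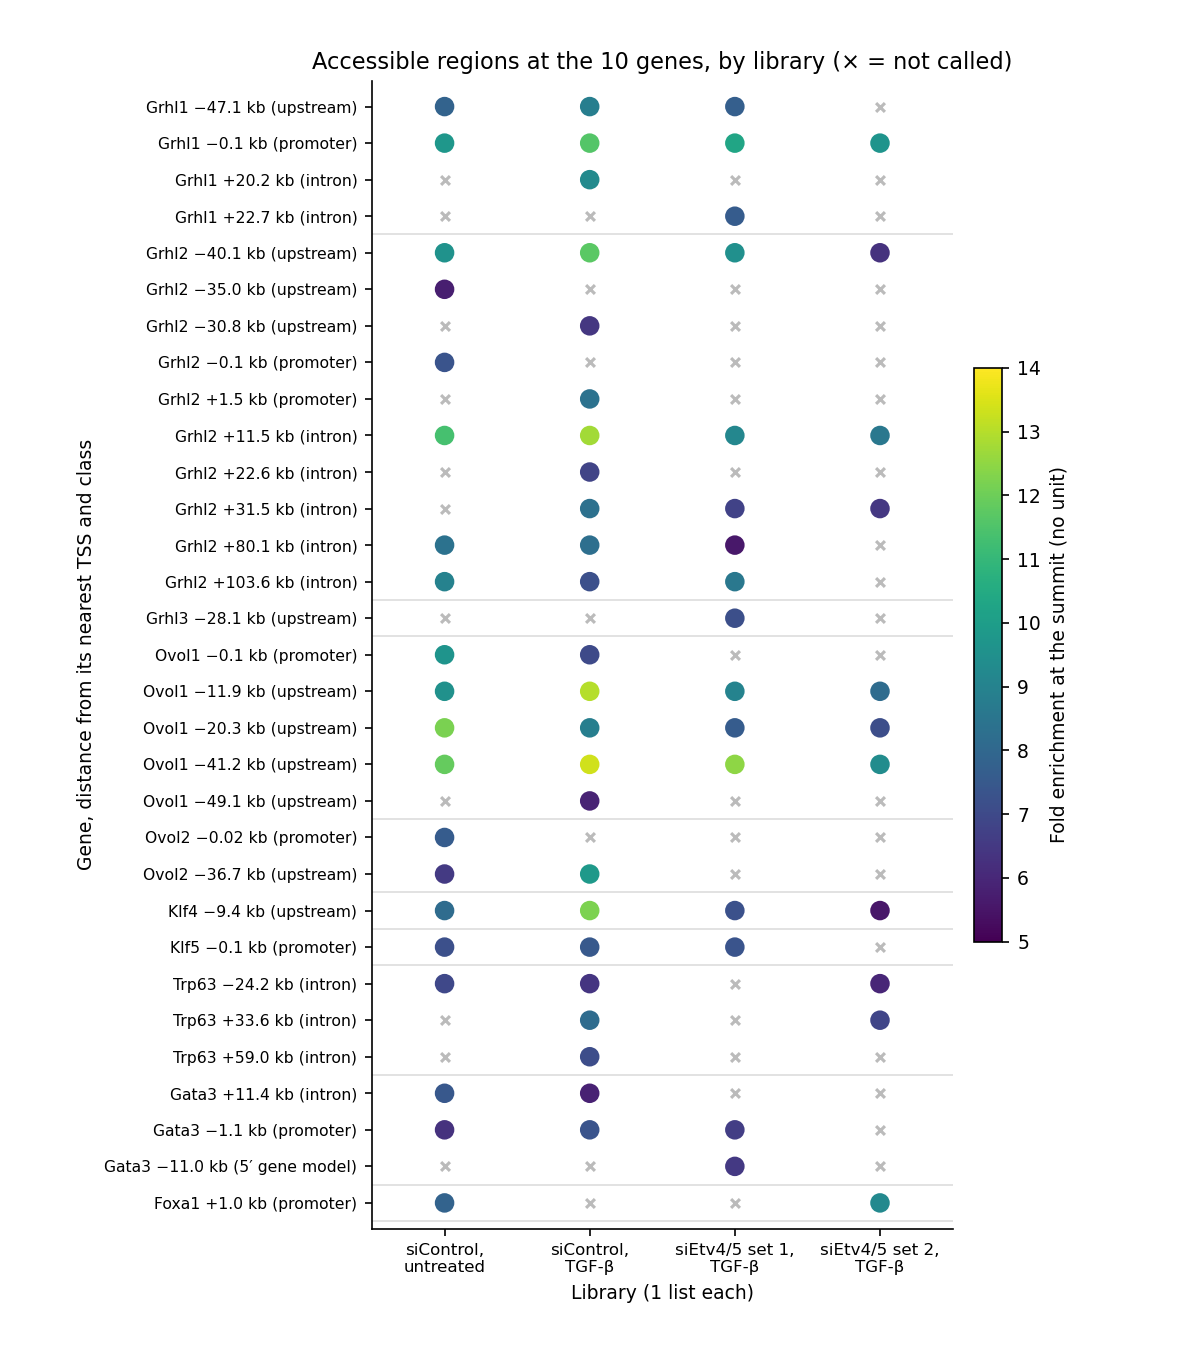
Each row is 1 of the 31 regions, named by gene, distance from its nearest TSS in kb and class, and each column is 1 library; a filled point is a called region coloured by fold enrichment and a cross is a library without a call. Only 7 rows are filled in all 4 columns, and 5 of these are upstream regions.

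In all 4 libraries, 7 regions (22.6%) were called, while 12 (38.7%) were called in 2 or 3 libraries and 12 (38.7%) in a single library. Over all regions of the series the shares were 29.6%, 38.9% and 31.5%. The highest number of summit fragments in any library had a median of 32 in the regions called in all 4, 23 in those called in 2 or 3 and 18 in those called in 1, and these medians equalled those of all regions of the series. The regions called once held 15 to 30 fragments.

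At the promoters, 7 of the 10 genes had a region in untreated cells (70%), 5 after TGF-β (50%), 3 for set 1 (30%) and 2 for set 2 (20%). Over all 21938 protein-coding genes the shares were 36.1%, 38.1%, 34.1% and 27.3%. At equal list length the 10 genes had 4, 3, 3 and 2 promoters called, beside 29.9%, 27.8%, 27.6% and 27.3% of all genes, an alternative added once the data had been seen. Grhl1 was the only member with a promoter call in every library, and Grhl3, Klf4 and Trp63 had none in any. In the deposited lists, the genes whose promoters were called in untreated cells and not in siControl with TGF-β were Foxa1 and Ovol2. Of these, Foxa1 was called again with set 2, which also had TGF-β. At equal list length neither was in the untreated list, and the genes that differed in this way were Klf5 and Ovol1.

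**Figure D2:**
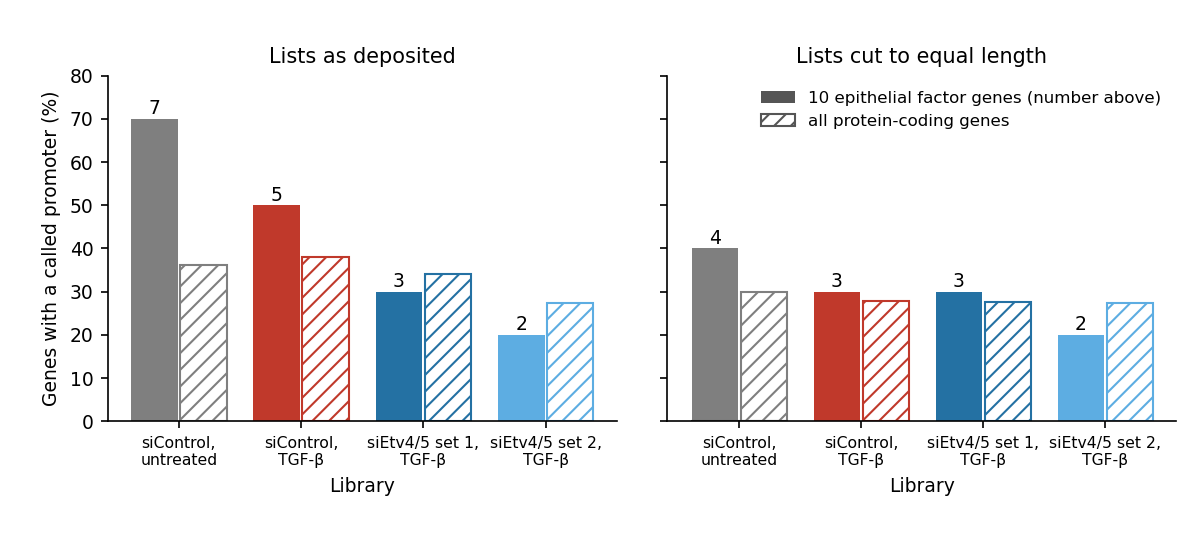
Bars give the percent of genes with a region within 2 kb of a TSS in each library, filled for the 10 epithelial factor genes with their number on top and hatched for all 21938 protein-coding genes; the left panel uses the deposited lists and the right panel lists of 14925 regions each. The filled bars step down from 7 to 2 genes on the left and from 4 to 2 genes on the right.

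The Grhl1 promoter (chr12:24572068-24572285) had a fold enrichment of 9.77 in untreated cells, 11.6 with TGF-β, 10.3 for set 1 and 9.66 for set 2, from 19, 24, 22 and 22 fragments at the summit. These values lay close to each other, and their 95% Poisson intervals, which cover counting error only, overlapped in FPM, the summit fragments over the estimated depth in M reads (0.748 to 1.94, 0.945 to 2.19, 0.798 to 1.93 and 0.667 to 1.61). A region 47.1 kb upstream of Grhl1 lies in the body of Taf1b, the gene of a subunit of an RNA polymerase I factor, and had 15, 18 and 17 fragments in the first 3 libraries. It was not called with set 2, where about 12 fragments would have been needed. The other calls at Grhl1 were intron regions of 1 library each, 20.2 kb from a TSS with TGF-β (19 fragments) and 22.7 kb from it with set 1 (16 fragments).

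Grhl2 carried 10 regions, the most of any member, along a gene of 131 kb. The one with the most fragments in every library was in the intron 11.5 kb after the TSS, 1388 bp from the TSS of the antisense RNA Gm16137, with a fold enrichment of 11.4 in untreated cells, 12.7 with TGF-β, 9.15 for set 1 and 8.6 for set 2. Its summits held 32, 37, 29 and 32 fragments. In FPM this was 2.09, 2.27, 1.68 and 1.55, and the intervals of the highest and lowest (1.60 to 3.13 and 1.06 to 2.19) overlapped. The region 40.1 kb upstream (chr15:37192834-37193092) had fold enrichments of 9.55, 11.7, 9.48 and 6.27, from 27, 30, 26 and 19 fragments, and was lowest with set 2. At the start of Grhl2 the call changed place between libraries. A region 0.054 kb before the TSS, which also overlaps the antisense RNA Gm16136, was called in untreated cells alone, with 25 fragments. A region 1.5 kb after the TSS was called with TGF-β alone, with 30 fragments. In each library without these calls, 15 to 17 fragments would have been enough, and no region was called at the Grhl2 promoter with either siRNA set.

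Further into Grhl2, the intron region 31.5 kb after the TSS had 27 fragments with TGF-β and 23 with each siRNA set, and was not called in untreated cells, where about 14 would have been needed. The intron region at 80.1 kb had 23, 20 and 14 fragments in untreated cells, with TGF-β and with set 1, and that at 103.6 kb had 18, 15 and 19. Neither was called with set 2, where about 14 and 12 would have been needed. The region at 103.6 kb was the only one of the 10 genes with a higher fold enrichment with set 1 than with siControl under TGF-β, 8.6 beside 7.20. The remaining 3 regions of Grhl2 were called in 1 library each, with 18 to 21 fragments. Grhl3, the grainyhead-like factor best known from the epidermis, had a single region 28.1 kb upstream, called with set 1 alone with 15 fragments.

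**Figure D3:**
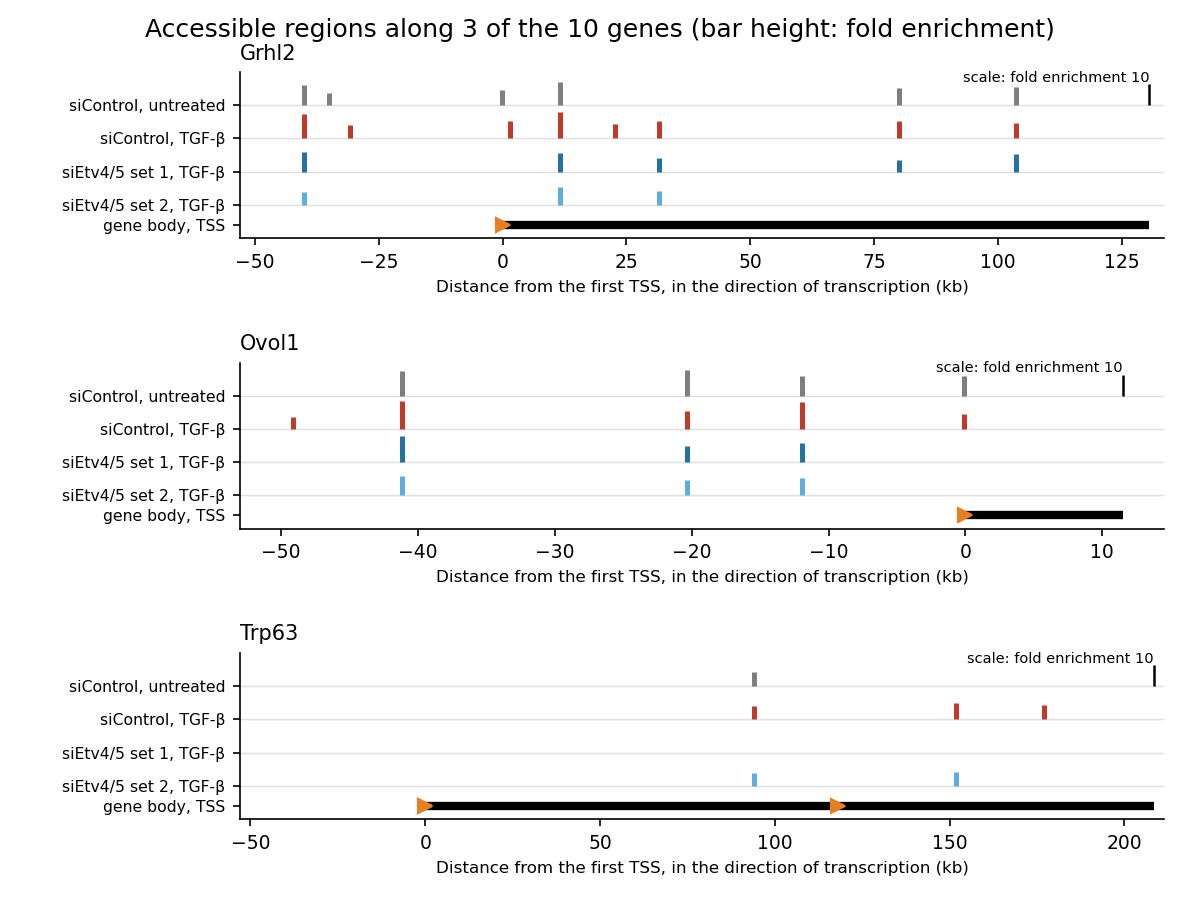
Regions along Grhl2, Ovol1 and Trp63 are drawn against the distance from the first TSS in kb, with 1 row per library, bar height proportional to fold enrichment with a scale bar of 10, the gene body in black and TSSs as orange arrowheads. Grhl2 regions spread over the gene and its upstream side, Ovol1 regions lie upstream or at the TSS, and the 3 Trp63 regions lie inside the gene, away from both arrowheads.

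The Ovol1 promoter region, which overlaps an antisense transcript, had a fold enrichment of 9.67 in untreated cells and 7.03 with TGF-β, from 26 and 15 fragments. It was not called with set 1 or set 2, where about 12 and 13 fragments would have been needed. In FPM the levels were 1.70 (1.11 to 2.49) and 0.922 (0.516 to 1.52), with overlapping intervals. The region 11.9 kb upstream (chr19:5572382-5572737) was called in all 4 libraries and had the most fragments of all 31 regions with TGF-β. It held 32, 49, 32 and 28 fragments, with fold enrichments of 9.51, 13.0, 9.03 and 8.14. Its level with TGF-β was 3.01 FPM (2.23 to 3.98) and its level with set 2 1.36 (0.901 to 1.96), intervals that do not overlap, while those of untreated cells (1.43 to 2.96) and set 1 (1.27 to 2.61) overlapped the interval with TGF-β.

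The region 20.3 kb upstream of Ovol1 was highest in untreated cells, with fold enrichments of 12.2, 8.81, 7.60 and 7.14 from 24, 18, 16 and 16 fragments. The TSS of another gene, Ap5b1, is nearer than that of Ovol1 to this region (12911 bp) and to that 11.9 kb upstream (4485 bp). The region 41.2 kb upstream, with 27, 34, 31 and 28 fragments, lies 30 bp from the TSS of Rnaseh2c, the gene of a ribonuclease subunit, and that 49.1 kb upstream, called with TGF-β alone with 18 fragments, lies 252 bp from the TSS of Kat5, the gene of a histone acetyltransferase. Both are thus also promoter regions of these neighbours. Ovol2 had a promoter region in untreated cells alone, with 16 fragments and a fold enrichment of 7.58, where 11 or 12 fragments would have been needed in the other libraries. Its other region, 36.7 kb upstream and 118 bp from the TSS of Kat14, had 17 fragments in untreated cells and 26 with TGF-β and was not called with either siRNA set.

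Klf4 had 1 region, 9.4 kb upstream (chr4:55541773-55541960), and it was called in all 4 libraries. It held 19 fragments in untreated cells, 32 after TGF-β, 17 for set 1 and 14 for set 2, with fold enrichments of 8.13, 12.2, 7.24 and 5.53. The level with TGF-β was the highest, and both siRNA sets were below untreated cells. In FPM the levels were 1.24 (0.748 to 1.94), 1.97 (1.35 to 2.78), 0.984 (0.573 to 1.58) and 0.678 (0.370 to 1.14), so that the intervals of TGF-β and of set 2 did not overlap and the others did. As ratios of fold enrichment, TGF-β was 1.5-fold untreated cells, and the siRNA sets were 0.593 and 0.453 of siControl with TGF-β. Both siRNA ratios share the siControl library with TGF-β. Klf5 had 1 region at its promoter (chr14:99298405-99298725), with fold enrichments of 7.20, 7.48 and 7.34 in the first 3 libraries, and 24, 24 and 26 fragments. It was not called with set 2, where about 17 fragments would have been needed.

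**Figure D4:**
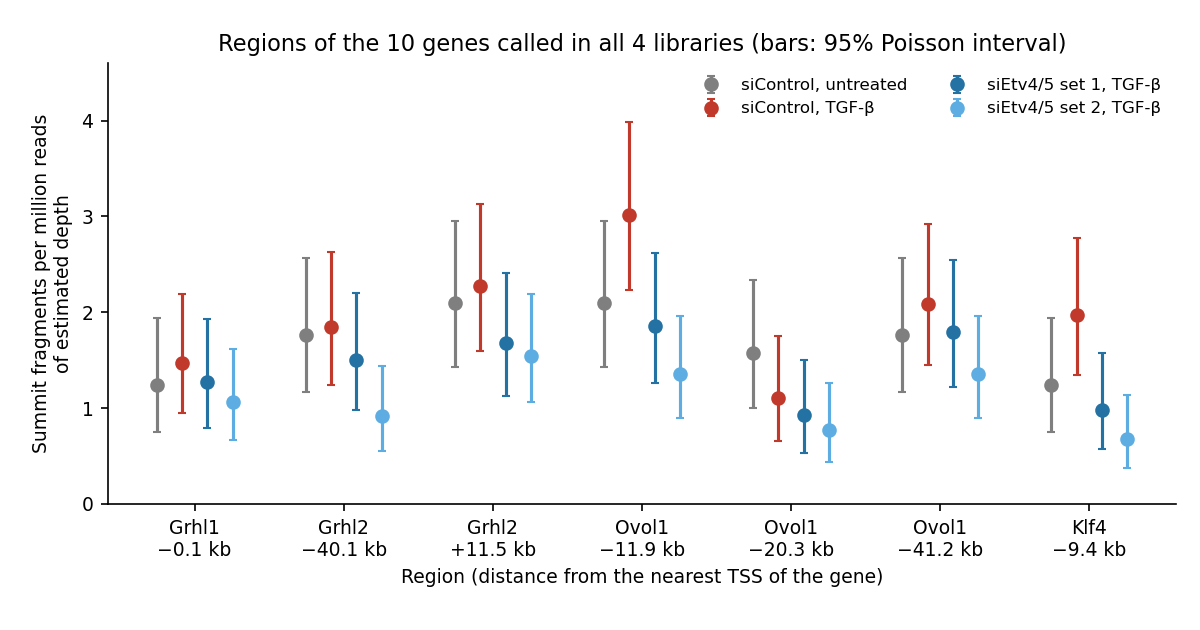
Points give summit fragments over the estimated depth in M reads (FPM) for the 7 regions called in all 4 libraries, with exact 95% Poisson intervals that cover counting error only; the x axis names the gene and the distance from its TSS in kb. The siControl library with TGF-β is highest at 6 of the 7 regions and set 2 is lowest at all 7. Over all regions called in both libraries, the median log2 ratio of FPM was 0.13 for TGF-β against untreated cells. Against siControl with TGF-β it was -0.24 for set 1 and -0.67 for set 2, so all regions had the same order of medians.

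Trp63 has distant start sites for its long forms and an internal one for the ΔN forms, which basal epithelial cells mainly use. Neither had a region in any library. The 3 regions of Trp63 lay in introns. That 24.2 kb before the internal TSS (chr16:25777575-25777802) had fold enrichments of 6.97 in untreated cells, 6.39 with TGF-β and 5.95 with set 2, from 23, 20 and 22 fragments. It was not called with set 1, where about 15 would have been needed. The region 33.6 kb after the internal TSS had 21 fragments with TGF-β and 21 with set 2, and that at 59.0 kb had 18 with TGF-β alone. Set 1 had no region at Trp63 and set 2 had 2.

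The Gata3 promoter region, 1.08 kb before the TSS (chr2:9879559-9879792), had fold enrichments of 6.30, 7.33 and 6.65 from 24, 30 and 28 fragments in the first 3 libraries. It lies 1577 bp from the TSS of 4930412O13Rik, annotated as a protein-coding gene, and was not called with set 2, where about 19 fragments would have been needed. An intron region 11.4 kb after the Gata3 TSS had 19 fragments in untreated cells and 16 with TGF-β and was not called with either siRNA set. A region 11.02 kb upstream of this TSS (chr2:9889548-9889693) was called with set 1 alone, with 18 fragments. It lies in the 5′ part of the Gata3 gene model, close to its 5′ end at 9890034. The Foxa1 region, 0.981 kb after the TSS and inside the gene (chr12:57545071-57545210), had fold enrichments of 7.82 in untreated cells and 9.24 with set 2, from 15 and 21 fragments. It was not called with TGF-β or set 1, where 11 fragments would have been needed. Foxa1 was the only member with a region in set 2 and not in siControl with TGF-β.

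To see how TGF-β changed the calls, regions of one list with no overlap in the other were counted. With TGF-β, 8 of 24 regions of the 10 genes were gained (33.3%), beside 37.0% of all 28754 regions. In the other direction, 4 of the 20 regions of untreated cells were lost (20.0%), beside 18.4% of all 22247. Both shares were near the background. The gained regions were in Grhl1, Grhl2 and Trp63, 30.8 kb upstream of Grhl2, and 49.1 kb upstream of Ovol1, at the TSS of Kat5. The lost ones were at the start of Grhl2, 35.0 kb upstream of Grhl2, at the Ovol2 promoter and at Foxa1. Of the 4 lost regions, 3 lay within 2 kb of a TSS of any gene, from 10 such regions (30.0%), beside 13.1% of all regions of that kind, and 1 of 10 lay elsewhere, beside 21.9%. With so few regions, 1 region more or less moves these shares by 10 percentage points. At equal list length 4 of 10 were gained, beside 34.4% of all regions, and 7 of 13 were lost, beside 34.3%.

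Each siRNA set was then set against siControl with TGF-β, a library that both comparisons and the TGF-β comparison share. Dependence on Etv4 and Etv5 was not tested, since each group had 1 list and the knockdown was not checked here. With set 1, 11 of the 24 regions were absent (45.8%), beside 33.6% of all regions, and with set 2, 14 were absent (58.3%), beside 53.6%. Within 2 kb of a TSS of any gene, 4 of 9 were absent with set 1, beside 24.7%, and 6 of 9 with set 2, beside 41.5%. Elsewhere it was 7 of 15 with set 1, beside 38.3%, and 8 of 15 with set 2, beside 59.9%. At equal list length siControl with TGF-β had 10 of the regions, and 3 of these were absent with each set, beside 31.4% of all regions for set 1 and 33.4% for set 2. Regions called with an siRNA set and not in siControl with TGF-β were 3 of 16 with set 1 (18.8%), beside 15.2% of all regions, at Grhl1, Grhl3 and Gata3. With set 2 it was 1 of 11 (9.09%), beside 10.3%, at Foxa1.

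Where a region was called in both libraries, levels were compared as log2 ratios of fold enrichment. For TGF-β against untreated cells, 16 regions of the 10 genes had a median of 0.17, beside 0.12 for 18082 regions in all, with 10 higher and 6 lower, beside 65.4% higher and 34.6% lower of all regions. At least 1.5-fold higher were 2 of the 16, the regions upstream of Klf4 and Ovol2 (each 0.59), beside 5.92% of all regions, and at least 1.5-fold lower were none, beside 0.924%. The lowest values were -0.47 at the region 20.3 kb upstream of Ovol1 and -0.46 at the Ovol1 promoter, below the 10th percentile of all regions (-0.26). The ratios of the regions at and upstream of Ovol1 thus differed in sign, since the one 11.9 kb upstream stood at 0.45. At each of these regions, however, the FPM intervals of untreated cells and of siControl with TGF-β overlapped.

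For set 1 against siControl with TGF-β, 13 regions had a median of -0.21, beside -0.16 for 19023 regions in all, with 12 lower and 1 higher, beside 71.5% lower and 28.5% higher of all regions. Past 1.5-fold lower was 1 of the 13, Klf4 (-0.75), beside 6.6% of all regions, and past 1.5-fold higher none, beside 0.557%. For set 2, 10 regions had a median of -0.44, beside -0.38 for 13318 regions, and all 10 were lower, beside 89.4% of all regions. Past 1.5-fold lower were 3 of the 10, the regions of Klf4 (-1.14), Grhl2 40.1 kb upstream (-0.90) and Ovol1 11.9 kb upstream (-0.68), beside 24.2% of all regions, and past 1.5-fold higher none, beside 0.0901%. The medians of the 10 genes thus lay close to those of all regions in each comparison. Klf4 stood below the 10th percentile of all regions with both sets (-0.52 for set 1 and -0.76 for set 2), against the same siControl library.

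**Figure D5:**
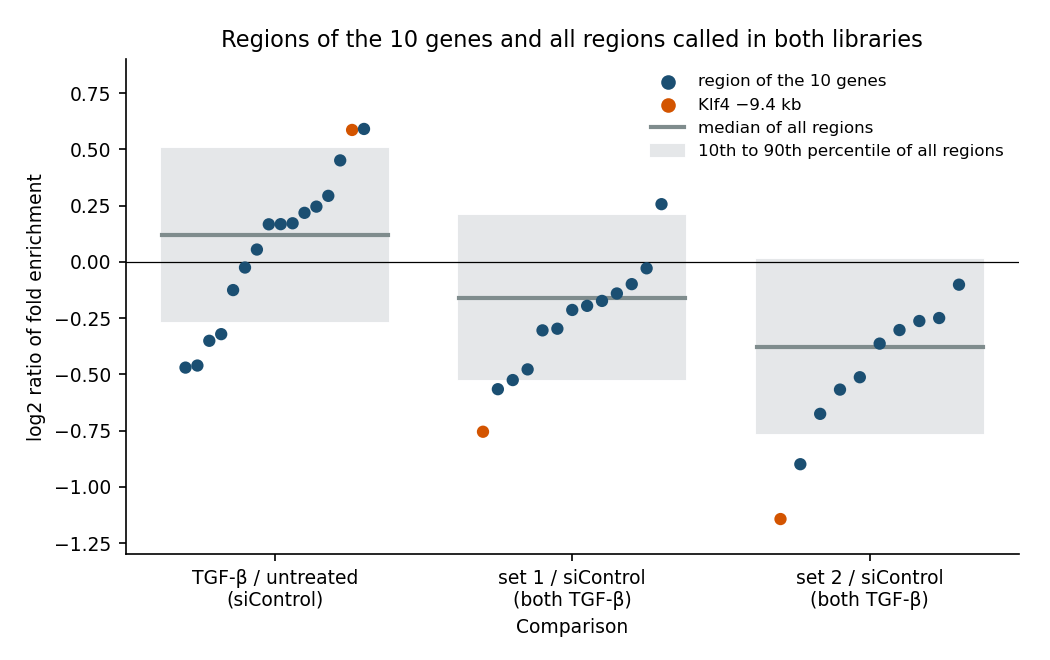
Points are the regions of the 10 genes called in both libraries of each comparison, ordered by their log2 ratio of fold enrichment on the y axis, with the grey band from the 10th to the 90th percentile of all regions and the grey line at their median. Most points lie inside the bands, and the orange point of Klf4 lies above the band for TGF-β and below it for both siRNA sets.

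Compared per length, the 10 genes with their upstream sides held 3.05 merged regions per 100 kb, beside 2.46 for all protein-coding genes. In all these densities, a region inside the windows of several genes was counted for each of them. The lists below were set with earlier results of these data known, and are given as counts. For 20 epithelial genes that these factors control or act with, such as keratins, claudins and Cdh1, there were 6.86 regions per 100 kb, and Krt18 had the most with 12 regions while Krt5 had none. Cldn3 and Cldn4 followed with 11 each and Krt8 with 9, and regions shared between genes were not set apart. Promoters of these epithelial genes were called in 12, 12, 8 and 7 of 20 genes in the order untreated, TGF-β, set 1 and set 2. List length fell in the same order over the last 3 libraries. Untreated cells had 12 from a list of 22247 regions, and set 1 had 8 from 22516. Among all 21938 protein-coding genes, promoters were called in 36.1%, 38.1%, 34.1% and 27.3% in the same order of libraries. The promoters of the 20 epithelial genes were not counted at equal list length, so a role of list length in their counts was not tested. Cdh1, the gene of E-cadherin, had 5, 2, 2 and 2 regions, and Esrp2, an epithelial splicing factor, had 2, 4, 2 and 0. For 15 other mammary epithelial transcription factors there were 2.23 regions per 100 kb, with promoters called in 7, 6, 7 and 4 genes. Runx1 had the most regions (16), Bcl11a, Ehf, Pgr, Tfap2c and Tfcp2l1 had none, and the promoter of Elf3 was called in all 4 libraries.

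For 8 repressors of the epithelial state there were 1.84 regions per 100 kb and promoters of 4, 4, 3 and 3 genes were called. The promoters of Snai1 and Tcf3 were called in all 4 libraries, Tcf4 had the most regions (6) and Twist1 had none. For 10 transcription factors of other lineages there were 1.88 regions per 100 kb, no promoter was called in any library, and 5 of the genes had no region, while Spi1 had 7. A promoter called in all 4 libraries was found for 1 of the 10 epithelial identity genes, 5 of the 20 epithelial genes, 3 of the 15 other factors, 2 of the 8 repressors and none of the 10 factors of other lineages, beside 23.7% of all protein-coding genes. No promoter call in any library was found for 3 of the 10 genes, beside 57.5% of all.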

How the data were processed

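FAIRE-seq region lists of 4 EpRas libraries were analysed, grouped by their labels. Per the labels and the study's methods, the authors sequenced on an Ion Proton, trimmed reads to 36 bp, aligned these to mm10 using bowtie2, and ran MACS2 (2.1.0 in the submitters' processing notes) with a q-value limit of 0.0001. The study describes biological replicates, and whether they were pooled is not given in the sources used here. The deposited lists give a fold enrichment, a ratio computed by the authors' caller, with the summit's −log10 p-value, −log10 q-value, position, and a score, which the caller of the authors derives from the q-value and which was not analysed.

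Summit fragments were solved from the fold enrichment, with a pseudocount of 1, and the Poisson −log10 p-value. They were whole numbers, within 0.05, in 100% of regions. Depth was estimated from the genome-wide background, the shortest region and an effective genome of 1.87 Gb. The fragments needed for a call in a library without one came from the depth-scaled background of the libraries with a call, so they are estimates. Regions overlapping by at least 1 bp were shared. The same steps recovered the known values of made-up regions.

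Gene models were those of GENCODE vM21 basic, and distances run from the middle of the merged region to the nearest TSS of the gene. RefSeq GRCm38 gave the sequences, and that of 1 promoter is not reported here. All 10 genes are named, with their promoter regions, their highest region, those called in all 4 libraries and the strong regions gained or lost, and from other lists the genes with the most and with no regions. Genes and lists were chosen with earlier results of these data known. Python 3.11.15, pandas 2.3.3, NumPy 2.4.6, SciPy 1.17.1 and matplotlib 3.10.9 were used. Alternatives were a stricter q-value, equal list length, other upstream reaches, promoter distances, overlap rules, scales and motif windows. The TSSs of all transcripts, leaving out promoters of other genes, and promoters at equal list length were added after the data were seen.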

Additional observations from a re-analysis of the deposited data

How the results depend on the processing

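With 1 list per group, the intervals cover counting error only, and the spread between samples, which differences also carry, was not measured. A region without a call may still be accessible below the fragments a call needed. These were estimated at 10 to 19 at the regions without a call. Of 72 alternative values, 59 stayed near the main value and 13 moved. For counts, near meant within 1.5-fold, and for the median log2 ratios it meant within their counting error. A reversal of sign was possible only for the log2 ratios, and 0 of these reversed. Equal list length moved the most. It gave 13, 10 and 9 regions in untreated cells, with TGF-β and with set 1, promoters of 4 genes in untreated cells and 3 with TGF-β, 4 of 10 regions gained, 7 of 13 lost, 3 absent with set 1 and 3 absent with set 2, and 4 called with set 2 and not in siControl with TGF-β. At that length 31.4% to 34.4% of all regions had no partner. Promoter regions within 1 kb numbered 3 with TGF-β in place of 5. With the TSSs of all transcripts, promoter regions numbered 5 with set 1 in place of 3, counted as regions and not as genes. RUNX letters were in 9 regions at 500 bp. The scale of summit fragments per M reads gave medians of 0.09, -0.26 and -0.56 on the log2 scale, beside 0.13, -0.24 and -0.67 for all regions. Without regions at promoters of other protein-coding genes, the libraries had 17, 20, 14 and 10 regions. No paired analysis was possible because each group had 1 list.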
